A study of Mus musculus with 33 samples.

Results

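The Wnt genes described here are the 44 genes of the count table, of 17120 in all, that carry the names of Wnt ligands (Wnt followed by a number and at most 1 letter), Frizzled receptors (Fzd), secreted Frizzled-related proteins (Sfrp) or Dickkopf proteins (Dkk), together with 12 further pathway genes chosen by name: Axin2, Lef1, Tcf7, Sp5, Nkd1, Nkd2, Notum, Rnf43, Znrf3, Lgr5, Frzb and Wif1. They comprise 16 ligands, 10 receptors (9 Frizzleds and Lgr5), 10 secreted inhibitors, 5 feedback inhibitors that act in the receiving cell and 3 transcription factors. The naming rule uses no measured value. All 44 passed the filter on low counts, and together they took 0.114 to 0.194% of the reads of a library.

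The libraries were bulk RNA-seq of mouse embryonic stem cells carrying the ScxGFP reporter, a green fluorescent protein under control of the tendon gene Scx. Embryoid bodies, formed with the BMP inhibitor LDN-193189, were driven toward paraxial mesoderm (PM) from D2 to D6 with LDN-193189 and CHIR, an inhibitor of the kinase GSK3 that activates Wnt signaling. PM was harvested at D6. All later samples grew in TGFβ1, the hedgehog agonist SAG and FGF2, plus a retinoid ligand. That ligand was either the RARγ agonist CD1530 (the tendon protocol) or the retinoic acid receptor inverse agonist AGN 193109 (the fibrocartilage protocol, called AGN below). RARγ is a receptor for retinoic acid. The study places embryoid body formation before D2, and for its 3D gels it made D6 PM under 2D conditions. Cells were sampled 0.25, 0.75, 1.5, 2.5 and 4 days into induction (D6.25 to D10), which gave 10 induction groups besides PM, each of 3 independent samples. Each library was a whole culture, so fewer cells of a type and less RNA per cell cannot be told apart. At the step from PM to D6.25, CHIR and LDN-193189 ended, and TGFβ1, SAG and FGF2 began. CD1530 began there in its protocol, as did AGN 193109 in the other unless the PM medium already held it. Their parts in a change at that step, and that of any change in culture format, cannot be told apart. One of the study's protocols also put AGN 193109 in the PM medium, and whether the samples sequenced here received it is not given in the sources used here. If they did, AGN 193109 went on in the AGN protocol and ended in the CD1530 protocol. Its end and the start of CD1530 could then not be told apart.

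Wnt proteins are secreted, lipid-modified ligands that bind Frizzled receptors, and in the canonical branch this stabilises β-catenin, which activates target genes with transcription factors of the TCF/LEF family. Several targets are themselves brakes on the pathway: Axin2 is part of the complex that destroys β-catenin, Notum removes the lipid from Wnt proteins, and Rnf43 and Znrf3 clear Frizzleds from the cell surface. In the embryo, Wnt signaling maintains the mesoderm progenitors from which somites and the axial tendons arise, and its secreted antagonists are expressed in restricted patterns in skeletal and joint-forming tissue.

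The 33 libraries held a median of 19899242 assigned reads, with the fewest at 17116084 and the most at 38120841, in AGN D8.5 replicate 1, well above the rest. CD1530 D6.75 replicate 1 stood apart from its 2 partners: the chi-square statistic per gene against them was 20.3 and 21.5, where the partners differed from each other by 2.31. Levels below are CPM, the reads of a gene relative to the library's total, scaled by the trimmed mean of M values (TMM), and a gene was called when edgeR's quasi-likelihood test gave a Benjamini-Hochberg adjusted p under 0.05 over all 17120 genes. The PM libraries held the mesoderm genes T at 79 CPM, Tbx6 at 9.56 and Msgn1 at 3.38 (group means), and also the pluripotency genes Pou5f1 at 701, Esrrb at 542 and Nanog at 466.

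**Figure D1:**
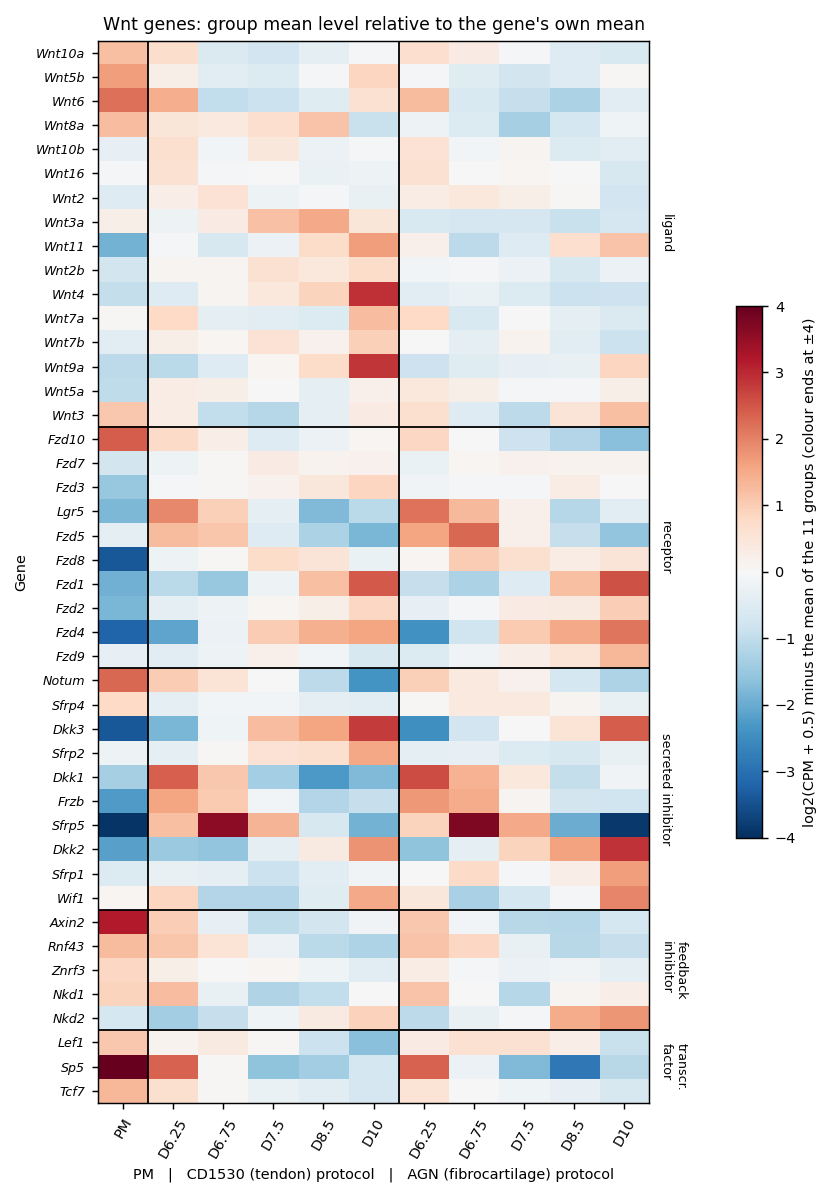
Group mean level of each Wnt gene (rows, grouped by role) in PM and at the 5 time points of each protocol (columns), as log2(CPM + 0.5) minus the gene's mean over the 11 groups. Red is above and blue below that mean. Axin2, Sp5, Fzd10 and Notum are reddest in PM, Lgr5, Dkk1, Frzb and Sfrp5 soon after induction, and Wnt4 and Wnt9a in CD1530 at D10.

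The first question was what became of the Wnt genes when CHIR was withdrawn and induction began. Within 0.25 days, 39 of the 44 members differed from PM in CD1530, with 25 above PM and 14 below it. The same counts were reached in AGN. Of all genes, 67.8% were called in CD1530 (34.5% higher and 33.3% lower) and 68.1% in AGN (35.0% higher and 33.1% lower). Both comparisons use the same 3 PM libraries. The members that fell included all 3 transcription factors, Axin2, Znrf3, Nkd2 and Notum, while 8 of 10 receptors and 7 of 10 secreted inhibitors rose.

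Sp5 encodes a zinc finger factor that is among the most direct targets of β-catenin. It stood at 211, 226 and 224 CPM in the PM libraries, at 38.9, 41.4 and 37.7 in CD1530 at D6.25, and at 39.3, 39.2 and 37.1 in AGN. Both protocols lost most of the PM level: the log2 fold changes against PM were -2.49 ± 0.05 (SE) and -2.52 ± 0.06, and no library of either protocol came near the PM values. Its fall went on to 1.91, 1.95 and 2.21 CPM in CD1530 at D7.5 and 1.82, 2.05 and 1.48 in AGN. Axin2 followed the same course, from 165, 154 and 168 CPM in PM to 32.8, 36 and 36.3 with CD1530 and 39, 37.3 and 35.8 with AGN at D6.25. Its log2 fold changes were -2.21 ± 0.06 and -2.12 ± 0.06. By D7.5 Axin2 lay between 7.36 and 9.04 CPM in all 6 libraries.

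Lef1 and Tcf7, which bind DNA as partners of β-catenin, fell less. Lef1 went from 94.2, 93.7 and 90.9 CPM in PM to 47.9, 49.4 and 48.6 in CD1530 and 54, 57.4 and 53.7 in AGN, a log2 change of -0.93 ± 0.05 and -0.76 ± 0.05. Tcf7 went from 137, 129 and 137 CPM to 83.3, 81.5 and 82.7 in CD1530 and 76.3, 78.5 and 78.3 in AGN (-0.70 ± 0.05 and -0.79 ± 0.05). Both groups of 3 lay wholly below PM for each gene. Notum, the extracellular Wnt deacylase, stood at 66.8, 73.9 and 67.5 CPM in PM, then at 28.1, 28.6 and 28.5 in CD1530 and 26.1, 26.4 and 27.5 in AGN, with log2 changes of -1.29 ± 0.07 and -1.38 ± 0.07. Nkd1, an inhibitor that binds Dishevelled, went the other way at first. It was at 59.7, 57.7 and 53.2 CPM in PM, 71.8, 71.8 and 70.6 in CD1530 and 68.1, 69.6 and 63.2 in AGN, a rise of 0.33 ± 0.06 and 0.24 ± 0.06 on the log2 scale, before it fell to between 11.4 and 14.7 CPM at D7.5.

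**Figure D2:**
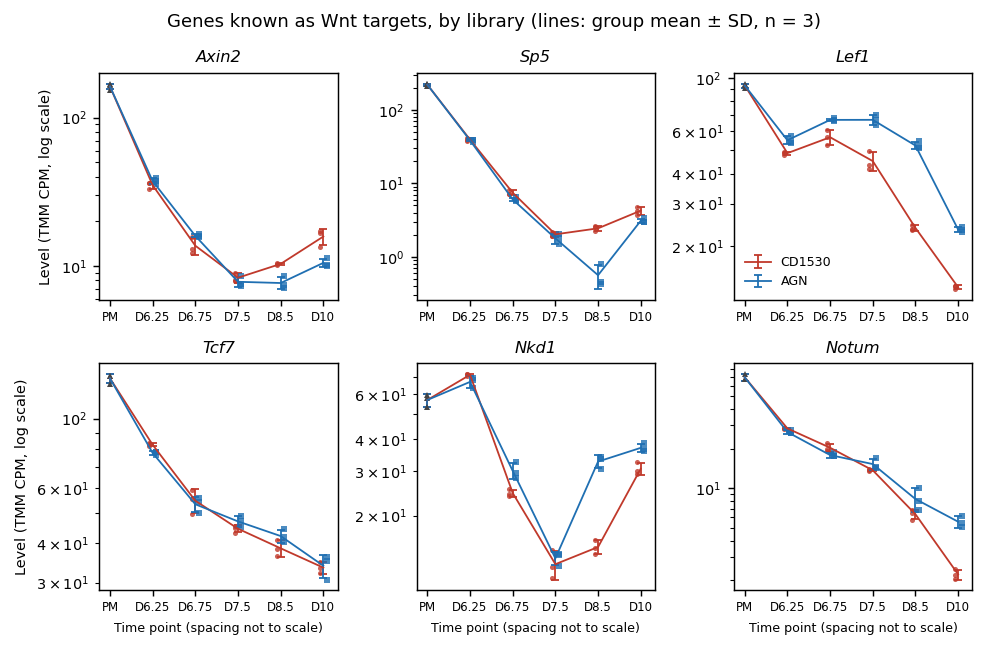
Level of 6 genes known as Wnt targets, in TMM CPM on a log scale, against time point for CD1530 (red) and AGN (blue). Points are libraries, lines join group means and bars are ± SD (n = 3). Sp5 and Axin2 fall steeply from PM in both protocols, while Lef1 stays higher in AGN from D7.5 on.

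Ligands moved both ways at the same step. Wnt5b, a ligand of the non-canonical branch and the most abundant Wnt per kb of transcript in PM (14.5 CPM per kb), went from 37.9, 39.9 and 37.3 CPM to 13.8, 14.5 and 12.8 in CD1530 and 10.6, 11.3 and 11.3 in AGN, with log2 changes of -1.49 ± 0.08 and -1.80 ± 0.08. Its close relative Wnt5a rose from 31.2, 29.5 and 26.2 CPM to 63.2, 82.9 and 74 in CD1530 and 82.9, 79.1 and 79.1 in AGN (1.34 ± 0.08 and 1.47 ± 0.08). From D6.25 on, Wnt5a was the most abundant ligand per kb in every group except CD1530 at D10. Wnt11, also non-canonical, rose from 1.96, 3.16 and 1.89 CPM to 9.6, 9.96 and 9.5 in CD1530 and 11.5, 12.2 and 11.2 in AGN, by 2.04 ± 0.13 and 2.30 ± 0.13.

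Wnt6, Wnt8a and Wnt3 fell in both protocols, by 0.79 and 1.01, 0.83 and 1.62, and 0.84 and 0.49 on the log2 scale in CD1530 and AGN respectively. The low-level ligands Wnt10b, Wnt2, Wnt2b and Wnt7a each rose to at least 2 times the PM level, with no overlap with PM in any of them. Wnt10b was at 0.909, 0.52 and 0.646 CPM in PM, then at 2.18, 1.91 and 1.45 in CD1530 and 1.83, 1.85 and 1.44 in AGN. Wnt2 was at 0.526, 0.378 and 0.377 CPM in PM, then at 1.19, 1.29 and 0.852 in CD1530 and 0.869, 0.976 and 1.54 in AGN. Wnt2b and Wnt7a were of the same low order. Wnt2b was at 0.239, 0.283 and 0.269 CPM in PM, then at 0.693, 0.845 and 1.07 in CD1530 and 0.732, 0.732 and 0.577 in AGN. Wnt7a was at 0.67, 0.85 and 0.862 CPM in PM, then at 1.48, 2 and 1.49 in CD1530 and 1.78, 1.81 and 1.35 in AGN. Wnt7b rose as well, by 0.74 and 0.48 on the log2 scale, and Wnt9a and Wnt10a were not called. The calls of Wnt4 and Wnt16, both higher than in PM, were each lost without 1 library. The call of Wnt4 in CD1530 had adjusted p = 0.0803 without PM replicate 1 and 0.191 without CD1530 D6.25 replicate 2, and in AGN 0.0587 without AGN D6.25 replicate 2. That of Wnt16 had 0.076 and 0.0737 in CD1530 and 0.0722 and 0.0691 in AGN without PM replicate 2 or 3, and 0.181 without CD1530 D6.25 replicate 1. Wnt3a, at 0.574, 0.614 and 0.592 CPM in PM, was called lower in AGN (log2 fold change -2.36 ± 0.50, adjusted p = 7.38e-05). In CD1530 its value was -0.96 ± 0.40, with adjusted p = 0.0312, which became 0.051, 0.0622 and 0.0543 without PM replicate 1, 2 or 3 and 0.117 without CD1530 D6.25 replicate 1.

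Fzd10 was the receptor that fell. It was at 81.4, 75 and 75.4 CPM in PM and at 21.7, 24.4 and 25.2 with CD1530 and 28, 24.7 and 22.1 with AGN at D6.25, with log2 fold changes of -1.70 ± 0.08 and -1.63 ± 0.08. Lgr5, a receptor for the R-spondins that amplify Wnt signaling, and itself a Wnt target in several tissues, rose from 1, 0.897 and 0.754 CPM to 17.8, 17.9 and 17.6 in CD1530 and 22.4, 19.9 and 20.9 in AGN. That is 19.8-fold and 23.5-fold. Fzd8 rose from 4.79, 5.2 and 5.92 CPM to 50.3, 53.2 and 52.7 in CD1530 and 67, 60.3 and 64.8 in AGN (9.85-fold and 12.1-fold). Fzd5 rose from 41, 35.8 and 36.1 CPM to 116, 120 and 123 in CD1530 and 152, 149 and 144 in AGN, already with the AGN libraries above the CD1530 ones.

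The broadly expressed Frizzleds rose as well. Fzd2 went from 35, 33.4 and 33.8 CPM in PM to 88.1, 97.2 and 94 in CD1530 and 95.5, 97.3 and 99 in AGN. Fzd3, a receptor of the planar polarity branch, went from 10.4, 9.26 and 9.86 CPM to 26.2, 26.8 and 30.7 in CD1530 and 26.3, 26.1 and 25.6 in AGN. Fzd1, Fzd4 and Fzd7 rose by 0.47 to 1.31 on the log2 scale. Fzd9 did not pass the test in either protocol, at 3.65 CPM in PM against 3.36 and 3.08.

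The widest change of the step was in a secreted inhibitor, Sfrp5. Proteins of this group bind Wnt proteins (Sfrp, Frzb and Wif1) or the co-receptor Lrp5/6 (Dkk1). Sfrp5 rose from 0.239, 0.189 and 0.269 CPM in PM to 25, 24.4 and 26.2 in CD1530 and 20.5, 19.8 and 19.7 in AGN, 106-fold and 84.4-fold. No PM library held more than 5 reads of Sfrp5, which limits the precision of these folds. It peaked at D6.75, at 143, 129 and 128 CPM in CD1530 and 145, 142 and 156 in AGN. Frzb rose from 3.78, 3.83 and 4.31 CPM to 64.1, 65 and 64.5 in CD1530 and 72.9, 72.1 and 70.7 in AGN (16.3-fold and 18.1-fold). Dkk1, which is both a target and an antagonist of canonical signaling, rose from 2.58, 3.21 and 2.48 CPM to 43, 44.2 and 40.9 in CD1530 and 51.3, 45.9 and 51.5 in AGN (15.4-fold and 17.9-fold). In each of these 3 genes the PM libraries were far below all 6 others. Sfrp4 went the other way, from 1.05, 1.46 and 1.18 CPM in PM to 0.247, 0.4 and 0.17 in CD1530 and 0.641, 0.488 and 0.433 in AGN. The call of Wif1, at 1.88-fold and 1.36-fold the PM level, in CD1530 and AGN, was lost in AGN without PM replicate 1 (adjusted p = 0.127) or 2 (0.0852) or AGN D6.25 replicate 1 (0.124) or 3 (0.058).

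**Figure D3:**
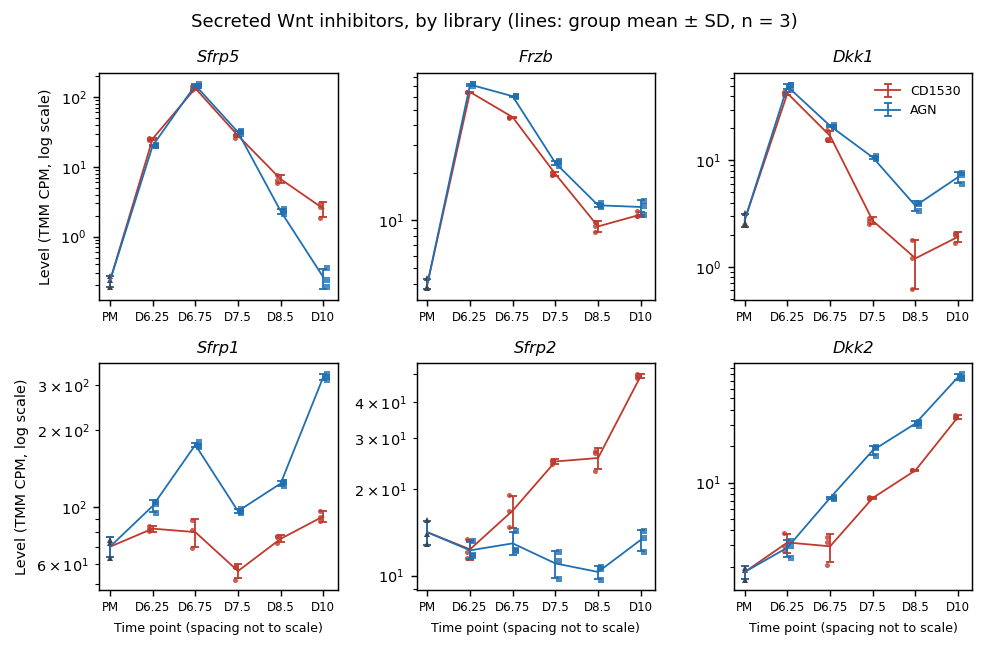
Level of 6 secreted Wnt inhibitors, in TMM CPM on log scales that differ between panels, against time point for CD1530 (red) and AGN (blue). Points are libraries, lines join group means and bars are ± SD (n = 3). Sfrp5, Frzb and Dkk1 spike after PM and decline, whereas Sfrp1 and Dkk2 end higher in AGN and Sfrp2 in CD1530.

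Of the other pathway genes, 54 of a list of 56 (co-receptors, R-spondins, Dishevelleds, the destruction complex, nuclear partners and planar polarity genes) were in the table. At D6.25, 41 were called against PM in CD1530, 30 above PM and 11 below (median log2 fold change 0.22), which is 75.9% beside 67.8% of all genes. In AGN 42 were called, 31 higher and 11 lower (median 0.29), or 77.8% beside 68.1%, and the median over all genes was near 0 in each protocol (0 and 0.004). Rspo3, an R-spondin, rose by 1.69 and the Wnt secretion factor Wls by 1.23 in CD1530, whereas Dvl2 fell by 0.59. Of 10 mesoderm genes known to respond to Wnt, 9 were in the table and 7 fell in each protocol, among them Cdx1 (-1.81 in CD1530 and -2.61 in AGN), Cdx2 (-2.24 and -1.92) and Msgn1 (-1.94 and -1.77). Cdx4 and Hes7 were not called. Markers of several cell types moved over the same step. Cartilage markers (5, summed) went from 19.1 to 21.7 CPM to 188 to 203 in CD1530 and 188 to 198 in AGN. In each protocol 3 were called, all higher. Tendon markers (7, summed) went from 1400 to 1790 CPM to 3270 to 4380 and 4090 to 4460. In CD1530 6 of these were called, 5 higher and 1 lower, and in AGN 5, all higher. The summed level of 5 pluripotency markers went from between 2120 and 2130 CPM to between 985 and 1040, with all 5 called lower in each protocol. That of 5 endoderm markers went from between 3.35 and 3.66 CPM to 173 to 176 in CD1530 and 189 to 192 in AGN, with 4 and 3 markers called, all higher, and fell again to 29.8 to 31.7 and 21.1 to 21.9 CPM by D8.5. Sox17 went from 0.968 CPM to 67.5 and 80.9 and Foxa2 from 0.73 to 46.1 and 49.5. The sum of 6 endothelial markers went from 103 to 108 CPM to 217 to 257 and 223 to 230, and that of 7 surface ectoderm and epithelial markers from 968 to 989 CPM to 1230 to 1240 and 1320 to 1360, the latter with markers called in both directions. The part of these cells in the Wnt gene changes at this step, the rises of Sfrp5, Lgr5, Frzb and Dkk1 included, was not tested.

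Promoter sequence was looked up for the members in a RefSeq table of windows from 250 bases before to 50 bases after each transcription start (GRCm38.p6), in which 31 of the 44 members had 39 windows. The TCF/LEF core motif CTTTGAT or CTTTGAA, on either strand, was in 4 of these 39 windows (10.3%) and in 8.65% of all 32851 windows of the same length. CTTTGAT alone was in 7.69% of the member windows and 3.73% of all, and CTTTGAA alone in 2.56% and 5.14%. The nuclear receptor core AGGTCA, directly repeated after 2 or after 5 bases, on either strand, was in 0 of the 39 windows and in 0.00913% of all windows for each spacing. Only these exact letters were searched, and they are so rare that the 0 cannot set the member windows apart from others. The 4 windows with a TCF/LEF core belong to 2 genes that fell at the step from PM, Sp5 and Wnt5b, and 2 that rose, Wnt11 and Dkk1. A match is a description of the letters and does not show a bound site. The stretches before the RefSeq start sites are shown 5′ to 3′ on the gene's strand, with the core in capitals, because they are the member promoters that hold one. That of Sp5 lies at chr2:70474773-70474922 (plus strand), that of Wnt5b at chr6:119449387-119449536 (minus strand, before an alternative start inside the gene), that of Wnt11 at chr7:98834962-98835111 (plus strand, core on the opposite strand) and that of Dkk1 at chr19:30549596-30549624 (minus strand, before a RefSeq start that lies inside the gene as GENCODE M21 draws it, so that this stretch is within the annotated gene).
Sp5: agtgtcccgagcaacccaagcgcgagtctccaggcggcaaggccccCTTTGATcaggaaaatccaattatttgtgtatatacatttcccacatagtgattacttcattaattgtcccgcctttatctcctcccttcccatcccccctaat
Wnt5b: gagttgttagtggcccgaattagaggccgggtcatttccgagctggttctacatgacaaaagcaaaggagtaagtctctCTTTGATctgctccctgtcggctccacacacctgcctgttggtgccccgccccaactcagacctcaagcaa
Wnt11: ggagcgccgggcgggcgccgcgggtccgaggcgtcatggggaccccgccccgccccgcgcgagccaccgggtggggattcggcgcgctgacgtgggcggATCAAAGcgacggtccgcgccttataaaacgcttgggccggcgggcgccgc
Dkk1: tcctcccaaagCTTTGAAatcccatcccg
The core began 104 bases before the start in Sp5, 71 in Wnt5b, 51 in Wnt11 and 117 in Dkk1.

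The second question was when and how the agonist and the inverse agonist set the Wnt genes apart. No group was grown in TGFβ1, SAG and FGF2 without a retinoid ligand. A gap between the protocols therefore does not show which of the ligands moved a gene. At D6.25, 7 members differed between CD1530 and AGN (15.9%), 3 higher and 4 lower in CD1530, where 1.92% of all genes were called (1.23% higher and 0.695% lower). Dkk3, a divergent Dickkopf that does not bind Lrp6, was at 15.1, 16.9 and 15.5 CPM in CD1530 and 10.4, 10.4 and 9.29 in AGN, 1.58-fold higher. Sfrp5 was 1.26-fold higher, while Fzd5, Fzd8 and Sfrp1 were at 0.804, 0.813 and 0.816 of the AGN level. In each of these 5 genes the libraries of the groups did not overlap. The remaining calls, Wnt8a and Nkd2, were each lost without either of 2 single libraries: Wnt8a (0.80 ± 0.18) had adjusted p = 0.0586 without CD1530 D6.25 replicate 1 and 0.0692 without AGN D6.25 replicate 3, and Nkd2 (-0.35 ± 0.08) had 0.133 without CD1530 D6.25 replicate 3 and 0.176 without AGN D6.25 replicate 1.

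The count rose to 24 members at D6.75 (9 higher and 15 lower in CD1530), beside 18.0% of all genes (7.94% higher and 10.0% lower). Without CD1530 D6.75 replicate 1, the library that stood apart, 21 members were called, and in a fit of the compared groups alone 10 (12 at D6.25). Fzd5 was at 93.1, 112 and 115 CPM in CD1530 and 243, 239 and 248 in AGN, and Fzd8 at 60.8, 61.8 and 65.1 against 124, 120 and 126, so that both receptors were near 2-fold lower in CD1530 (log2 fold changes -1.19 ± 0.06 and -0.98 ± 0.05). Sfrp1 (69.2, 81.5 and 88.8 CPM against 174, 172 and 179) and Dkk2 (2.07, 3.23 and 3.54 against 7.31, 7.38 and 7.65) were likewise lower, by 1.13 ± 0.06 and 1.33 ± 0.13. None of these values overlapped. At D7.5, 24 members were called (14 higher and 10 lower), beside 26.9% of all genes (15.2% higher and 11.8% lower). All 7 ligands called at D7.5 were higher in CD1530, though Wnt11 had an adjusted p of 0.0551 to 0.194 without any single library of either group. At D8.5, 31 members were called (15 higher and 16 lower), beside 40.0% of all genes (20.4% higher and 19.6% lower), and the 10 secreted inhibitors were all among them, 3 higher and 7 lower. Without AGN D8.5 replicate 1, the deepest library, 27 members were called, and the adjusted p of Wif1 became 0.234 and that of Sfrp4 0.116. The call of Wif1 was also lost without CD1530 D8.5 replicate 3 (0.0862), that of Notum without CD1530 D8.5 replicate 1 (0.0823) or AGN D8.5 replicate 2 (0.188), and that of Sfrp4 without any of 4 further libraries (0.0536 to 0.154).

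By D10, 32 members differed (72.7%), 16 higher and 16 lower in CD1530, where 46.6% of all genes were called (22.7% higher and 24.0% lower). At least a doubling or halving was seen in 15 members (10.8% of all genes). Of 11 ligands called, 9 were higher in CD1530 and 2 lower, and the median log2 fold change of the 16 ligands was 1.15, against -0.019 over all genes. Of 8 receptors called, 2 were higher and 6 lower. Of 8 secreted inhibitors called, 3 were higher and 5 lower.

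**Figure D4:**
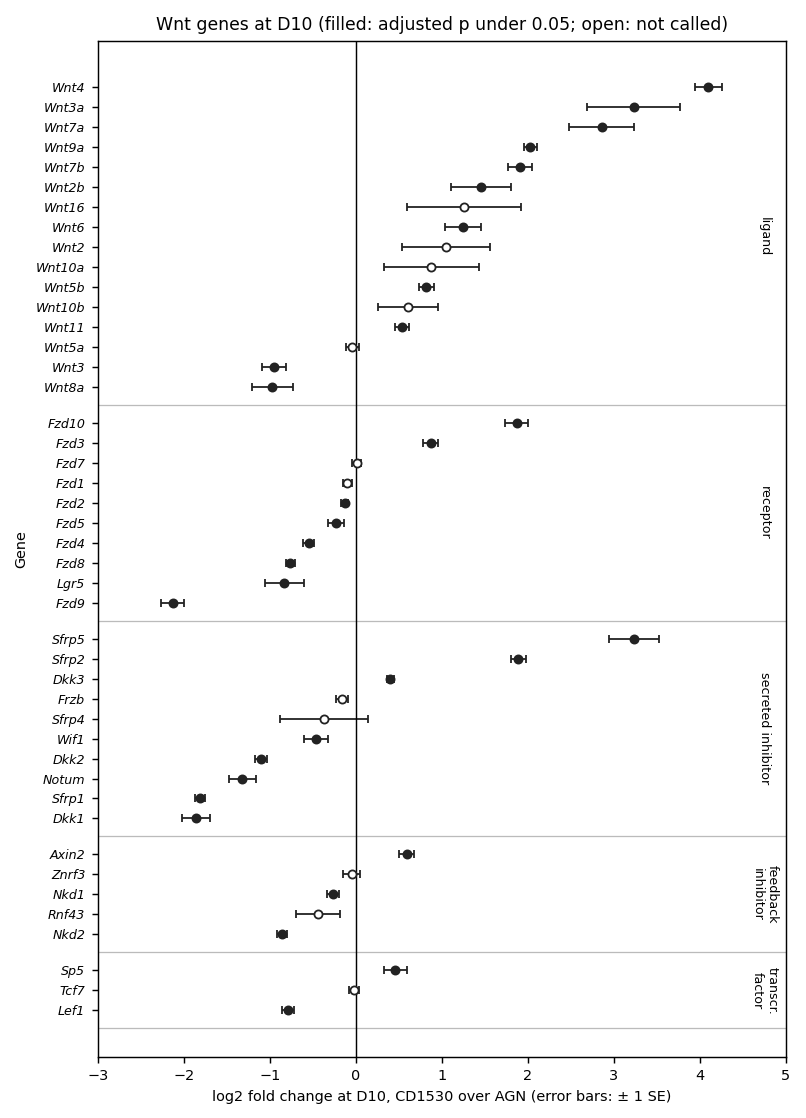
log2 fold change of each Wnt gene at D10, CD1530 over AGN, with bars of ± 1 SE, ordered within roles. Filled points were called and open points were not. Of the 16 ligands, 9 are called to the right of 0, led by Wnt4 at 4.10, while Fzd9, Dkk1 and Sfrp1 lie farthest to the left.

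Wnt4, which acts in both branches and is known from kidney, gonad and joint development, showed the widest gap. It stood at 27.9, 30 and 26.4 CPM in CD1530 and 1.56, 1.75 and 1.6 in AGN at D10, 17.1-fold apart (log2 fold change 4.10 ± 0.16, adjusted p = 2.01e-24). In PM it had been at 1.29, 1.65 and 1.45 CPM. The gap opened from D7.5, at 3.87, 5.05 and 4.85 CPM against 1.82, 2.09 and 2.37, and at D8.5 it was 6.93, 6.01 and 6.84 against 2, 1.48 and 1.27. Wnt9a, a ligand of joint-forming cells, was the most abundant Wnt per kb in CD1530 at D10 (22.3 CPM per kb). Its libraries held 73.8, 71.9 and 76.5 CPM in CD1530 and 19.5, 18.7 and 16.2 in AGN, 4.09-fold apart. From D6.25 to D10 it rose in both protocols, 17.1-fold in CD1530 and 3.47-fold in AGN.

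Wnt7b was at 16.5, 13.6 and 15.6 CPM in CD1530 and 3.69, 3.85 and 4.57 in AGN (log2 fold change 1.91 ± 0.14). Its relative Wnt7a was called at D10 alone of the 5 time points, at 2.22, 2.59 and 2.36 CPM against 0.25, 0.361 and 0.356 (2.86 ± 0.38). Both are canonical ligands known from nervous tissue, limb ectoderm and epithelium. Wnt2b, at 1.82, 1.38 and 1.69 CPM against 0.875, 0.301 and 0.594, and Wnt6, at 3.79, 3.96 and 4.10 against 1.25, 2.23 and 1.49, were also higher in every CD1530 library (1.46 ± 0.35 and 1.25 ± 0.21). Wnt5b was 1.77-fold and Wnt11 1.45-fold higher.

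**Figure D5:**
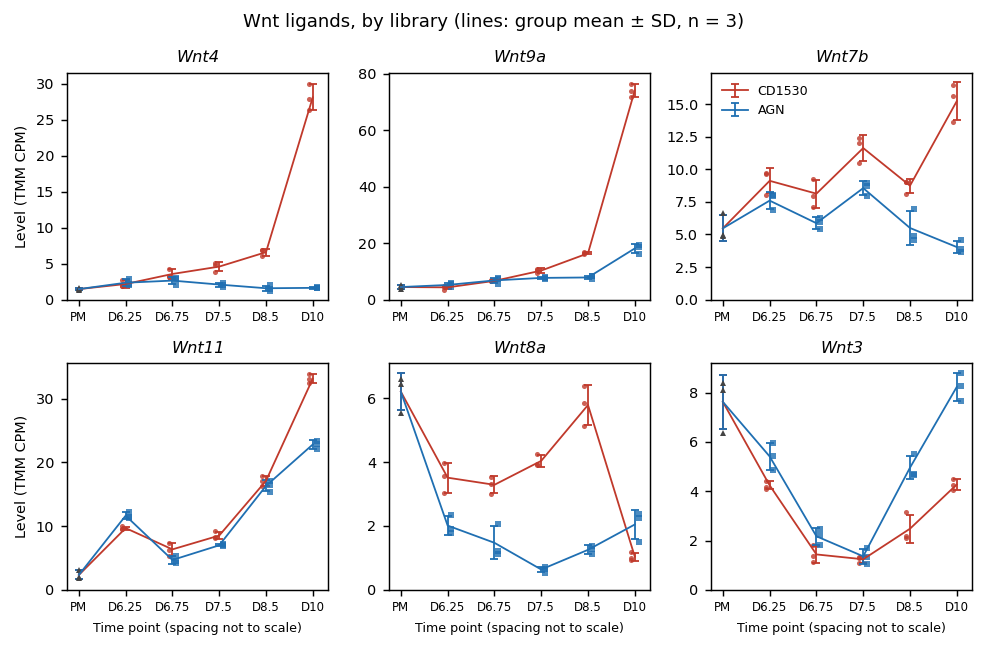
Level of 6 Wnt ligands in TMM CPM (linear axes that start at 0 and differ between panels) against time point for CD1530 (red) and AGN (blue). Points are libraries, lines join group means and bars are ± SD (n = 3). Wnt4 and Wnt9a climb in CD1530 between D8.5 and D10, and Wnt8a is above AGN in CD1530 until D8.5 and below it at D10.

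Wnt3a, the ligand of the tail bud progenitors, was near the limit of detection but separated the protocols from D6.75. The libraries held 18, 12 and 15 reads in CD1530 against 2, 1 and 2 in AGN at D6.75, a depth-corrected ratio of 8.14 (exact 95% interval 3.24 to 26.3, counting error only). At D7.5 there were 28, 33 and 39 reads against 3, 1 and 1 (ratio 19, interval 7.88 to 59.8). At D8.5, 30, 33 and 50 reads stood against 0, 0 and 0, at least 53-fold higher when AGN is set to a floor of 3 reads over the group (the exact 95% lower limit of the ratio was 42.4). At D10 the reads were 14, 19 and 12 against 1, 1 and 2, a ratio of 9.97 (interval 3.64 to 38.2). Wnt3a lies at chr11:59248033-59290752 on the minus strand, 16.2 kb from Wnt9a at chr11:59306928-59333552 on the plus strand (GRCm38, GENCODE M21).

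Wnt8a, another ligand of the early mesoderm, changed sides. It was higher in CD1530 at D6.75, D7.5 and D8.5, where the libraries at D7.5 held 3.92, 4.26 and 3.94 CPM against 0.717, 0.651 and 0.543 in AGN (log2 fold change 2.66 ± 0.22). At D10 it was lower, at 1.01, 0.936 and 1.18 CPM against 2.25, 1.51 and 2.38 (-0.97 ± 0.24). Wnt3 was the other ligand lower in CD1530 at D10, at 4.04, 4.51 and 4.27 CPM against 8.25, 8.79 and 7.66 (-0.95 ± 0.14). Wnt5a, at 68.3 and 70 CPM on average, was not called. Wnt2, Wnt10a, Wnt10b and Wnt16 lay between 0.16 and 1.06 CPM on average at D10 and were not called either. Under single alternatives Wnt10a was called with the compared groups alone (adjusted p = 0.0453), Wnt16 without AGN D10 replicate 3 (0.0209) and Wnt2 without CD1530 D10 replicate 3 (0.0418), each higher in CD1530.

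Receptors at D10 were led by Fzd1, Fzd2 and Fzd7 in both protocols (84, 59.8 and 32.8 CPM per kb in CD1530, and 89.9, 65.5 and 32.5 in AGN). Of these 3, Fzd2 alone was called, at 0.912 of the AGN level (adjusted p = 0.00677, or 0.0632 without AGN D10 replicate 1). Fzd1, at 0.935 of the AGN level (adjusted p = 0.0912), was called lower with DESeq2 (0.033), with its size factors (0.041) and with the compared groups alone (0.013). Fzd1 had climbed 11.5-fold and 11-fold since D6.25 in CD1530 and AGN, and Fzd4, the receptor for norrin as well as Wnt, 14.4-fold and 26.8-fold. Fzd10 was at 13.3, 13.4 and 17.5 CPM in CD1530 and 4.94, 3.55 and 3.62 in AGN (1.87 ± 0.13), and Fzd3 was 1.83-fold higher in CD1530. Fzd9 went the other way, at 2.58, 3.41 and 2.59 CPM against 12.9, 12.9 and 11.9 (-2.13 ± 0.13). Fzd8, Fzd4 and Lgr5 were at 0.589, 0.681 and 0.563 of the AGN level, and Fzd5 at 0.855 (adjusted p = 0.0361). The call of Fzd5 was lost without CD1530 D10 replicate 3 (0.167), AGN D10 replicate 1 (0.0563) or AGN D10 replicate 3 (0.272).

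The secreted inhibitors divided within families. Sfrp1 stood at 91.7, 87.9 and 96.4 CPM in CD1530 and 332, 314 and 323 in AGN (log2 fold change -1.81 ± 0.06), and Sfrp2 at 49, 50.1 and 48.6 against 14.3, 12.1 and 13.5 (1.89 ± 0.09). Sfrp5, past its peak, was at 3.03, 1.82 and 2.7 CPM in CD1530 and 0.188, 0.241 and 0.356 in AGN (3.24 ± 0.29). No library overlapped for any of the 3. Dkk1 was at 1.97, 2.09 and 1.69 CPM against 7.25, 7.65 and 6 (-1.86 ± 0.16), and Dkk2 at 36.5, 34.1 and 34.9 against 73.3, 72.6 and 80.3 (-1.10 ± 0.07). Dkk3 was the most abundant inhibitor per kb at D10 in both protocols (121 and 91.6 CPM per kb), and 1.32-fold higher in CD1530. Wif1 was at 0.725 of the AGN level, and Frzb and Sfrp4 were not called, with Frzb called lower only without AGN D10 replicate 3 (adjusted p = 0.0268).

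Of the genes known as canonical targets, Axin2 and Lef1 moved in opposite directions at D10. Axin2 was at 17.3, 13.5 and 16.6 CPM in CD1530 and 11.3, 10.2 and 10 in AGN, 1.50-fold higher (adjusted p = 1.7e-06), and Lef1 at 13.2, 13.6 and 13.6 against 23.9, 23.4 and 22.9, at 0.576 of the AGN level (adjusted p = 9.93e-13). Notum was lower in CD1530, at 2.42, 2.04 and 2.19 CPM against 5.44, 6.2 and 5.05 (-1.32 ± 0.16). Nkd1 was lower by 0.27 ± 0.07 (32.5, 29.2 and 30 against 38.4, 35.9 and 36.4 CPM) and Nkd2 by 0.86 ± 0.06. Sp5 was at 4.80, 3.74 and 4.22 CPM against 2.94, 3.01 and 3.33, a log2 fold change of 0.46 ± 0.13 with adjusted p = 0.00515, which became 0.0705 without CD1530 D10 replicate 1. Tcf7 stood at 35, 33.3 and 32.2 CPM against 35.1, 30.7 and 36.1 and was not called at any time point, nor were Rnf43, Wnt2, Wnt10b and Wnt16. The levels of Axin2 and Sp5 at D10 were 15.8 and 4.25 CPM in CD1530 on average, against 162 and 221 in PM. At D8.5 some of these gaps between the protocols were wider. The log2 fold changes were 2.19 for Sp5, -1.14 for Lef1, -1.12 for Nkd1 and -1.15 for Nkd2, each called under every alternative. Those of Axin2 and Notum, 0.40 and -0.35, were smaller than at D10.

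The other pathway genes at D10 gave 43 calls among 54, 15 higher and 28 lower in CD1530 (median log2 fold change -0.11), which is 79.6% beside 46.6% of all genes. Sost, an Lrp5/6 inhibitor best known from osteocytes, was higher by 4.34. Its group means were 2.57 CPM in CD1530 and 0.121 in AGN, low levels that limit the precision of this fold. Porcn, the acyltransferase that lipidates Wnt proteins, was higher by 0.94. The BMP and Wnt antagonist Sostdc1 was lower by 4.62 (group means 0.451 CPM in CD1530 and 11.2 in AGN). The R-spondins Rspo1 and Rspo2 were lower by 1.12 and 1.6, at 1.59 against 3.45 CPM and 0.612 against 1.85. Rspo3 was at 29.8 CPM against 40. Marker lists of other cell types differed between the protocols at D10 too. The summed level of 8 neural markers was 784 to 795 CPM in CD1530 and 480 to 516 in AGN, with all 8 called higher in CD1530, and Neurog2 was at 0 in the AGN libraries. The sum of 5 cartilage markers was 235 to 241 CPM against 3080 to 3210, and that of 7 surface ectoderm and epithelial markers 272 to 280 against 398 to 405, though 3 of the 7 were called higher in CD1530 and 4 lower. The sum of 7 tendon markers was 15200 to 15800 CPM against 20500 to 21700, and that of 5 pluripotency markers 146 to 152 against 312 to 316, with 2 of the 5 called higher in CD1530 and 2 lower. The sum of 5 endoderm markers was 87.5 to 91 CPM in CD1530 and 31.3 to 33.9 in AGN, with 3 called higher and 1 lower, and that of 6 endothelial markers 155 to 170 against 143 to 153. All 5 cartilage markers were called lower in CD1530, as were 5 of the 7 tendon markers. The part of these cells in the Wnt gene differences at D10 was not tested.

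The third question was how each protocol changed the Wnt genes between D6.25 and D10. In CD1530, 38 members were called (18 higher and 20 lower), beside 75.3% of all genes (37.2% higher and 38.2% lower). In AGN, 37 were called (14 higher and 23 lower), beside 74.5% (36.0% higher and 38.6% lower). Scaled by library size alone, the median of all genes moved from -0.019 to -0.188 in CD1530 and from -0.045 to -0.244 in AGN, the calls over all genes split into 5158 up and 8125 down with CD1530 (members 17 and 23) and 4736 up and 8488 down with AGN (members 14 and 24). Against PM, 40 members differed at D10 in CD1530 (22 higher and 18 lower), beside 83.2% of all genes (43.3% higher and 39.9% lower), and 38 in AGN (19 and 19), beside 82.0% (41.6% and 40.4%). Scaled by library size alone, the calls over all genes against PM split into 6828 up and 7498 down with CD1530 (members 22 and 18) and 6345 up and 7867 down with AGN (members 18 and 20), and the median of all genes moved to -0.069 and -0.152.

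The widest rise (Dkk3) and the widest fall (Dkk1 in CD1530, Sfrp5 in AGN) were in genes grouped here as secreted inhibitors. Dkk3 rose 25.5-fold in CD1530 and 30.7-fold in AGN, and Dkk2 11-fold and 26.1-fold. Sfrp1 rose 3.2-fold in AGN. Dkk1 fell by 4.47 and 2.83, Notum by 3.67 and 2.26 and Frzb by 2.57 and 2.57 on the log2 scale. Sfrp5 fell by 3.31 in CD1530 and by 6.22 in AGN. Among receptors, Fzd5 fell by 3.13 and 3.22 and Lgr5 by 3.35 and 2.76, against the rise of Fzd1 and Fzd4. The intracellular inhibitor Nkd2 rose by 2.35 and 2.86, while Axin2 fell by 1.15 and 1.83, Nkd1 by 1.22 and 0.86 and Rnf43 by 2.8 and 2.38.

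The time course differed between the protocols in 35 of the 44 members by the interaction of condition with time (79.5%), beside 48.8% of all genes. The difference between the protocols in the change from D6.25 to D10, a test added after the data had been seen, was called in 27 members, beside 33.3% of all genes. In 2 members (4.55%, against 3.07% of all genes), the change was called in opposite directions in the 2 protocols and so was the difference. Wnt4 rose by 3.69 ± 0.14 in CD1530 and was at -0.52 ± 0.22 in AGN, from 2.15, 2.88 and 2.02 CPM at D6.25 to the 1.56, 1.75 and 1.6 given above. The AGN value had adjusted p = 0.0327, which became 0.195 without AGN D6.25 replicate 2, 0.0807 without AGN D10 replicate 1 and 0.0742 without AGN D10 replicate 3. Wnt7b rose by 0.74 ± 0.12 in CD1530, from 9.70, 9.65 and 8.01 CPM, and fell by 0.91 ± 0.15 in AGN, from 6.86, 8 and 7.94 CPM.

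Some member counts may hold reads of other transcripts. Axin2, Fzd5, Lef1, Notum, Sfrp2, Wnt5a, Wnt7b and Wnt11 share exon sequence with a gene annotated on the opposite strand, and the strand setting of the counting is not given in the sources used here, so reads of the partners cannot be told apart. Wnt6 and Wnt10a lie 6.19 kb apart on the same strand of chromosome 1.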

How the data were processed

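The deposited values were raw read counts per gene, made by the authors from paired-end reads with STAR on GRCm38 and featureCounts. The annotation release, strand setting and handling of multi-mapping reads are not given in the sources used here. All 17120 gene IDs matched GENCODE M21. The members and lists were chosen with earlier results of these data known. From the counts, 1 edgeR (4.0.16, R 4.3.3) quasi-likelihood fit with TMM factors took all 33 libraries and 11 groups. The spread of each gene was thus estimated over all groups together (common biological coefficient of variation 4.68%). The default filter on low counts removed 0 genes. Contrasts were CD1530 against AGN at each time point, D6.25 and D10 against PM, D10 against D6.25, and the interaction with 4 degrees of freedom, with Benjamini-Hochberg adjustment over all genes in each. The fit was also run on simulated counts drawn from its own estimated spread, which cannot show how well that spread holds in these data. Any member could be named. Values of every library are given for members called, at 2-fold or more and with no overlap, at D10 or, in both protocols, at D6.25 against PM, and for Axin2, Sp5, Lef1, Tcf7, Nkd1 and Notum. Alternatives were DESeq2 (1.42.0), a likelihood ratio test, other scalings and filters, the compared groups alone, a block for the replicate number and leaving out each library. Levels per kb use the union of GENCODE M21 exons. Floors of 3 counts and intervals cover counting error only.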

Additional observations from a re-analysis of the deposited data

Results flagged for a closer look

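The change from D6.25 to D10 differed between the protocols, with called changes in opposite directions, in 2 members (4.55%), beside 3.07% of all genes. For Wnt4 the CD1530 change exceeded the AGN change by 4.20 ± 0.26 on the log2 scale (edgeR quasi-likelihood test, adjusted p = 9.43e-17), with every CD1530 library higher at D10 than at D6.25 and every AGN library lower. The fall of Wnt4 in AGN had adjusted p = 0.0327, which became 0.195 without AGN D6.25 replicate 2 and 0.0807 or 0.0742 without AGN D10 replicate 1 or 3. For Wnt7b the difference was 1.65 ± 0.19 (adjusted p = 2.86e-09), again with all 3 CD1530 libraries higher and all 3 AGN libraries lower at D10.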

How the results depend on the processing

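Of 351 called values of single members, 303 kept direction and call under every alternative run and 48 lost the call under at least 1. At D6.75, 14 of 24 calls were lost under at least 1 alternative, against 3 of 32 at D10 (Fzd2, Fzd5 and Sp5). At D10, Fzd1, Frzb, Wnt2, Wnt10a and Wnt16 gained a call under at least 1. Fitted on the compared groups alone, 12 members in place of 7 were called at D6.25 and 10 in place of 24 at D6.75 (804 in place of 329 and 1236 in place of 3076 genes in all); the cause was not tested. Without 1 library, the members called were 6 to 8 at D6.25, 18 to 21 at D6.75, 18 to 22 at D7.5, 27 to 31 at D8.5 and 30 to 33 at D10, with 27 at D8.5 without AGN D8.5 replicate 1, the deepest library. The log2 value of Sfrp1 between D6.25 and D10 in CD1530 was -0.01 (adjusted p = 0.876) when scaled by library size only. Members that were not called at D10 changed sign near 0: Fzd7 was 0 with DESeq2 and with its size factors and -0.01 to 0.03 without 1 library, Tcf7 was 0.02 scaled by library size only and -0.09 to 0.03 without 1 library, Wnt5a was 0 and -0.07 to 0.01, and Znrf3 was -0.1 to 0.01 without 1 library. Same-numbered libraries did not deviate together (correlations from -0.18 to 0.17), so the numbers were not taken as pairs. With a replicate block, 8, 23, 25, 31 and 32 members were called from D6.25 to D10, and 350 of the 351 calls were kept. The call lost was Fzd10 at D6.75 (adjusted p = 0.0524). Ligands at a few reads per library, such as Wnt3a in AGN, limit the precision of their folds.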
